A study of Mus musculus with 622 samples.

Results

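Control parthenotes of the miR-200c experiment were compared between the 4-cell and the late 2-cell stage, with 24 embryos at 4-cell and 28 at 2-cell, which are 52 of the 622 samples of the series. The groups were read from the sample titles, and no measured value was used to choose them. A parthenote is an egg made to develop without sperm, so it carries maternal chromosomes and no paternal genome. All 52 embryos came from superovulated FVB/NJ females aged 5 to 7 weeks, were activated in medium with strontium chloride (SrCl2), EGTA and cytochalasin B, and were injected into the cytoplasm with GFP in place of a microRNA. The 4-cell embryos were collected 46 hours after activation and the late 2-cell embryos 28 hours after it, each as a single-embryo SMART-Seq library of polyadenylated RNA. Eggs of about 5 females were pooled on each experimental day, with about 8 embryos per group and stage, and the labels do not tie an embryo to its day. Stage and library batch therefore cannot be told apart, and p-values measure the spread between embryos of pooled eggs. Control morulae (n = 20, 70 hours after activation) and fertilized 4-cell embryos (n = 21) are given as levels only. The 4-cell (n = 23) and 2-cell (n = 22) GFP controls of the miR-465c experiment share no embryo with these groups.

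The early mouse embryo starts on RNA and protein that the growing oocyte stored. Much of that RNA is removed around the first divisions, while the embryo's own genome is switched on, first weakly in the zygote and then broadly in the late 2-cell embryo. The late 2-cell wave includes a short burst of Zscan4, Usp17-like, Tcstv and MERVL-linked genes, many of them targets of the transcription factor Dux. The following wave includes genes for ribosomes, RNA processing and energy metabolism, and the first genes of the pluripotency network. The series tests sperm-borne microRNAs, and these control embryos show the change over which an injected microRNA would act.

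Levels are given as CPM, the expected counts of a gene scaled to 1000000 counts of the embryo. Differences are log2 fold changes of 4-cell over 2-cell, with the standard error (SE), from edgeR's quasi-likelihood test. A gene was called when its Benjamini-Hochberg adjusted p over all 10301 genes tested was under 0.05. A CPM is a share of an embryo's counts. A lower share, less RNA per cell and a larger amount of all other RNA therefore cannot be told apart. Total counts ran from 1106893 to 5061820 (median 2777821) at 4-cell and from 1174137 to 3922928 (median 2520326) at 2-cell. They did not differ past the threshold (permutation test of the means, two-sided, p = 0.217). At the median total, 3 counts correspond to 1.08 CPM at 4-cell and 1.19 CPM at 2-cell.

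The labelled stages were checked against defining markers. Each of 10 late 2-cell markers, among them Zscan4c, Zfp352, Tdpoz4 and Tcstv3, had a count in all 28 embryos at 2-cell. At 4-cell the number with a count ran from 5 of 24 embryos for Usp17le to 24 of 24 for Tdpoz4. Cdx2, a gene of the first outer lineage, averaged 2.55 ± 5.29 CPM at 4-cell and 0.626 ± 2.21 CPM at 2-cell (SD), against 309 ± 189 CPM in morulae. Other markers of morula and trophectoderm were mixed. Krt8 and Krt18 averaged 18.0 and 7.74 CPM at 4-cell, against 1507 and 575 CPM in morulae. Cldn4 and Nanog had a count in 24 of 24 embryos at 4-cell, with means of 268 and 110 CPM, against 1222 and 582 CPM in morulae. Gata3 averaged 4.04 CPM at 4-cell, 12.2 CPM at 2-cell and 345 CPM in morulae. Of the markers of the cumulus cells that surround an egg, Fshr had no count at either stage, and Has2, Ptx3 and Tnfaip6 had none in any 4-cell embryo. The same 3 averaged 1.30, 0.323 and 3.17 CPM at 2-cell, where Tnfaip6 had a count in 21 of 28 embryos. Cyp19a1 averaged 4.00 CPM at 2-cell, with a count in 14 of 28 embryos, and 0.67 CPM at 4-cell. Amh, Foxl2 and Inha averaged at most 0.30 CPM at either stage. Of 4 sperm markers Tnp1 had no count at either stage and Tnp2 had a count in 1 embryo at 4-cell and in none at 2-cell. Prm1 averaged 0.174 CPM at 4-cell and 0.194 CPM at 2-cell. Prm2 had a count in 11 of 24 embryos at 4-cell (mean 1.39 CPM) and in 14 of 28 at 2-cell (mean 0.945 CPM), and averaged 1.22 CPM in fertilized 4-cell embryos. Markers of a paternal genome were mixed. Impact, a paternally expressed imprinted gene, averaged 3.44 ± 5.51 CPM in 4-cell parthenotes, against 26.2 ± 15.9 CPM in fertilized 4-cell embryos (SD). Zrsr1, another such gene, averaged 0.0319 CPM in 4-cell parthenotes and 1.43 CPM in fertilized 4-cell embryos. The other markers differed by a smaller factor or not at all. Peg3 averaged 2.46 CPM in 4-cell parthenotes and 2.44 CPM in fertilized 4-cell embryos, Plagl1 0.813 and 1.09 CPM, Sgce 2.92 and 4.10 CPM, and Xist 11.6 and 27 CPM in the same order. Peg10 had no count in either group, and Snrpn and Mest, given further on, averaged more in the parthenotes.

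Most genes tested moved between the stages. Of 10301 genes, 7463 (72.4%) passed the test, with 3323 (32.3%) higher and 4140 (40.2%) lower at 4-cell. A change of more than 2-fold, tested with edgeR's glmTreat against a log2 fold change of 1, was called for 4731 genes (45.9%). These were 1857 higher (18.0%) and 2874 lower (27.9%). The median log2 fold change over all genes was -0.19. For 225 genes (2.18%) every 4-cell embryo lay above every 2-cell embryo, and for 214 (2.08%) every 4-cell embryo lay below.

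Fewer genes were detected at 4-cell. With every embryo thinned to 500000 counts, 9686 ± 374 genes had a count at 4-cell, against 10598 ± 748 at 2-cell (SD, n = 24 and n = 28). The permutation test gave p = 2e-05, the smallest it can give, and an adjusted p of 8e-05 over 4 measures per embryo. The 10 highest genes held 7.20 ± 1.21% of counts at 4-cell and 7.90 ± 1.37% at 2-cell, a difference that did not pass (permutation test, adjusted p = 0.0770). The distance of an embryo from the mean profile of its own group (1 minus Spearman's rho across genes) was 0.0953 ± 0.0306 at 4-cell and 0.123 ± 0.0564 at 2-cell. That difference had p = 0.0306 before and p = 0.0612 after adjustment over the 4 measures in the permutation test.

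Embryos of a stage differed in how far they stood from the other stage. The first principal component, with 47% of the variance, ran from 62.5 to 151.7 at 4-cell and from -171.1 to 1.40 at 2-cell. Embryo 19 of the 2-cell group lay nearest to the 4-cell embryos, and embryo 23 lay farthest from them. The cytosolic ribosomal protein genes, summed, came to 26524 CPM in embryo 19 and to 2996 CPM in embryo 23. Oocyte transcripts, a list of genes expressed by the egg, summed to 28943 CPM in embryo 19 and to 89724 CPM in embryo 23. Even these 2 embryos did not close the gap: the ribosomal protein sum of 4-cell embryos ran from 27747 to 60979 CPM (median 40489), and the oocyte sum from 5340 to 15178 CPM (median 7880). Without embryo 19 the test called 7539 genes, and without embryo 23 it called 7432. The 4-cell embryos nearest to the 2-cell group were embryos 1 and 24, and without both 7462 genes were called.

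**Figure D1:**
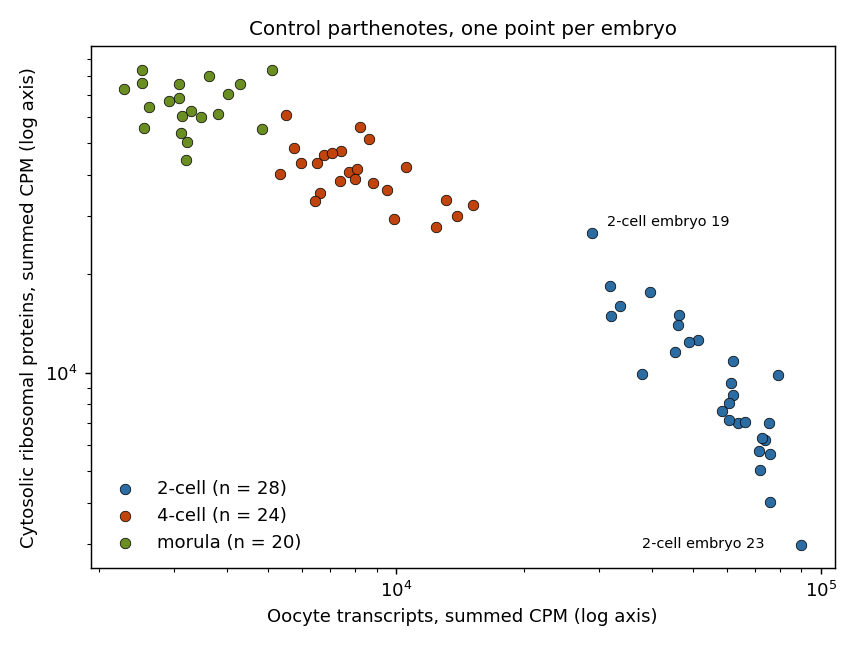
Each point is a control parthenote, with the summed CPM of the oocyte transcripts on the horizontal and of the cytosolic ribosomal proteins on the vertical axis (both logarithmic), for 28 embryos at 2-cell, 24 at 4-cell and 20 at morula. The 4-cell embryos do not overlap with the 2-cell embryos on either axis, and 2-cell embryo 19 (28943 and 26524 CPM) is nearest to them and 2-cell embryo 23 (89724 and 2996 CPM) farthest.

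The 2-cell genes, a list of the late 2-cell burst, fell almost as a block. Of 31 tested, 29 were lower at 4-cell (93.5%, against 40.2% of all genes), 1 was higher and 1 did not pass. Their median log2 fold change was -5.06, against -0.19 for all genes. For 11 of them every 4-cell embryo lay below every 2-cell embryo, which held for 2.08% of all genes tested. The list's summed level ran from 652 to 5930 CPM (median 1234) at 4-cell and from 4400 to 19235 CPM (median 6608) at 2-cell. The ranges overlap through 4-cell embryo 14 alone. In that embryo Usp17lb stood at 1816 CPM, against a highest value of 326 CPM in the other 4-cell embryos. Sp110, the member that did not pass, had a median of 718 CPM in those other embryos, a large part of the 4-cell sum. Several of these genes have near-identical copies (Zscan4, Usp17-like, Tdpoz, Tcstv and Pramef families), between which the expected counts were divided by estimation, so the values of single copies are uncertain.

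Zscan4 proteins are nuclear factors of the late 2-cell embryo, known in mouse embryonic stem cells for their link to telomere length. Zscan4d (chromosome 7, 11161643 to 11166148, build GRCm38.p6) had 0.00, 5.72 and 27.5 CPM (lowest, median and highest) at 4-cell, against 84.1, 256 and 803 CPM at 2-cell. Every 2-cell embryo held more of it than any 4-cell embryo, and 8 of the 24 4-cell embryos had no count. Its log2 fold change was -5.45 (SE 0.49, adjusted p = 1.16e-14). Zscan4a, Zscan4b, Zscan4c and Zscan4f fell likewise, with log2 fold changes of -5.39, -5.96, -5.06 and -4.90. Dux itself, which binds upstream of these genes, fell by 5.51 on that scale (adjusted p = 4.91e-09).

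The promoter windows of 4 Zscan4 copies are printed because they hold a Dux-like motif and belong to genes that fell. The motif searched was TGATT, 2 bases of any kind and ATCA, on both strands, within 250 bases before to 50 after each RefSeq gene start. In the windows the match is in capitals, reads as the other strand of the motif, and starts 91, 114, 125 and 91 bases before the gene start of Zscan4b, Zscan4c, Zscan4d and Zscan4f. Each line runs 5′ to 3′ along the gene, with 60 bases on either side of the match, from RefSeq on GRCm38.p6. Zscan4b lies at chr7:10905071-10905201 on the minus strand and Zscan4c at chr7:11005571-11005701 on the plus strand. Zscan4d lies at chr7:11166203-11166333 on the minus strand and Zscan4f at chr7:11397764-11397894 on the plus strand.
Zscan4b: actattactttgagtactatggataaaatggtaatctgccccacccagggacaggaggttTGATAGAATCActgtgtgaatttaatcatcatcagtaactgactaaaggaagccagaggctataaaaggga
Zscan4c: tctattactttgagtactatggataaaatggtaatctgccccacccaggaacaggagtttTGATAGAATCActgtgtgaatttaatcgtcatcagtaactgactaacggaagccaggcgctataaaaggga
Zscan4d: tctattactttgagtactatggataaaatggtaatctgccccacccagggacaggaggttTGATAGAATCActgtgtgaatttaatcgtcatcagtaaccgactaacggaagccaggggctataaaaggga
Zscan4f: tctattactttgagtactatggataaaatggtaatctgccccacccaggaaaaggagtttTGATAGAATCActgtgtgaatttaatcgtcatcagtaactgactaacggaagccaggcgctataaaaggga

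The match is the same letters in all 4 windows, and the sequence around it is nearly so. Of 27025 RefSeq promoters 0.233% hold the motif, and of the 7881 tested genes with a promoter 7 do (0.0888%). The other 3 were Psap (log2 fold change 3.39), Abcb5 (1.62) and Ppp2r1b (0.25, adjusted p = 0.493), of which Psap and Abcb5 were higher at 4-cell. Of genes more than 2-fold higher 2 of 1408 held the motif (0.142%), and of those more than 2-fold lower 4 of 2176 (0.184%). Shorter motifs were more common. GGATTA is a core bound by Obox and Crx factors. It was in 6.18% of promoters of genes more than 2-fold higher and 5.56% of those more than 2-fold lower. Of the tested genes with a promoter 5.75% held it, and of all RefSeq promoters 7.16%. AAGGTCA, an Nr5a2-like site, was in 3.69%, 2.90%, 3.01% and 4.66% in the same order. CCAAT, the NF-Y box, was in 37.6%, 39.8%, 39.7% and 37.9%. A match is a string of letters and not a bound site.

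Other members of the burst were as near to 0 at 4-cell. Zfp352 (chromosome 4), a zinc finger gene, had 0.00, 4.57 and 102 CPM at 4-cell, against 282, 497 and 1909 CPM at 2-cell. The groups did not overlap, and its log2 fold change was -5.69 (SE 0.59, adjusted p = 1.70e-12). Tcstv1 and Tcstv3 (chromosome 13) had medians of 1.39 and 1.21 CPM at 4-cell and of 167 and 311 CPM at 2-cell, and each fell by 5.75 on the log2 scale. Usp17lc, of a family of deubiquitinases, had a median of 0.00 CPM at 4-cell and 101 CPM at 2-cell and fell by 6.26. BC080695 fell by 8.34, the furthest of the list. Tdpoz4 kept a median of 52.5 CPM at 4-cell, against 154 CPM at 2-cell, and fell by only 0.89 on the log2 scale (adjusted p = 0.0180). Zfp809, a repressor of retroviral elements in mouse embryonic stem cells, was the member that rose, with a log2 fold change of 1.46 (adjusted p = 0.0201). Sp110 did not pass (-0.05, adjusted p = 0.746).

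The largest fall of any named gene was that of Tmem132c (chromosome 5, 127241826 to 127565790), a membrane protein gene. It had no count in any of the 24 embryos at 4-cell, against 26.3, 129 and 412 CPM at 2-cell. Set against a floor of 3 counts over the whole 4-cell group, it was at least 3394-fold lower at 4-cell. Of the 2-cell list, Rfpl4b, a RING finger gene, had a median of 0.356 CPM at 4-cell and 205 CPM at 2-cell, and Pramef25 had medians of 1.01 and 426 CPM in the same order. They fell, with log2 fold changes of -7.03 and -6.51, and neither gene had a 4-cell embryo within its 2-cell range.

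Of 17 factors tied to genome activation, 8 were higher, 7 lower and 2 not called, with a median of 0.21, in shares (47.1% and 41.2%) not far from those of all genes (32.3% and 40.2%). Within the Obox homeobox family, whose members help to open the genome in mouse, Obox3 (chromosome 7, 15625306 to 15639777) had 0.00, 1.11 and 29.4 CPM at 4-cell, against 106, 315 and 748 CPM at 2-cell, with no overlap (log2 fold change -6.68, SE 0.48, adjusted p = 3.49e-18). Obox1, Obox2 and Obox5 fell, with log2 fold changes of -3.81, -3.11 and -4.18. Obox6 went the other way, with 1035, 1663 and 2162 CPM at 4-cell and 34.3, 332 and 1320 CPM at 2-cell (log2 fold change 1.97, SE 0.20, adjusted p = 6.17e-13). Obox genes resemble each other, so reads shared between copies leave the value of each uncertain.

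Dppa2, a chromatin factor upstream of Dux in mouse embryonic stem cells, had 1027, 2099 and 2950 CPM at 4-cell, against 98.6, 235 and 1007 CPM at 2-cell. All 4-cell embryos lay above all 2-cell embryos (log2 fold change 2.68, SE 0.19, adjusted p = 2.50e-18), while Dux fell. Its partner Dppa4 also rose (0.90, SE 0.20, adjusted p = 5.15e-05). The nuclear receptor Nr5a2 and the Krüppel-like factor Klf5 rose, with log2 fold changes of 1.11 and 2.09. Nfya and Yap1 fell, with log2 fold changes of -2.65 and -2.24, and Nfyb rose, with a log2 fold change of 1.49.

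**Figure D2:**
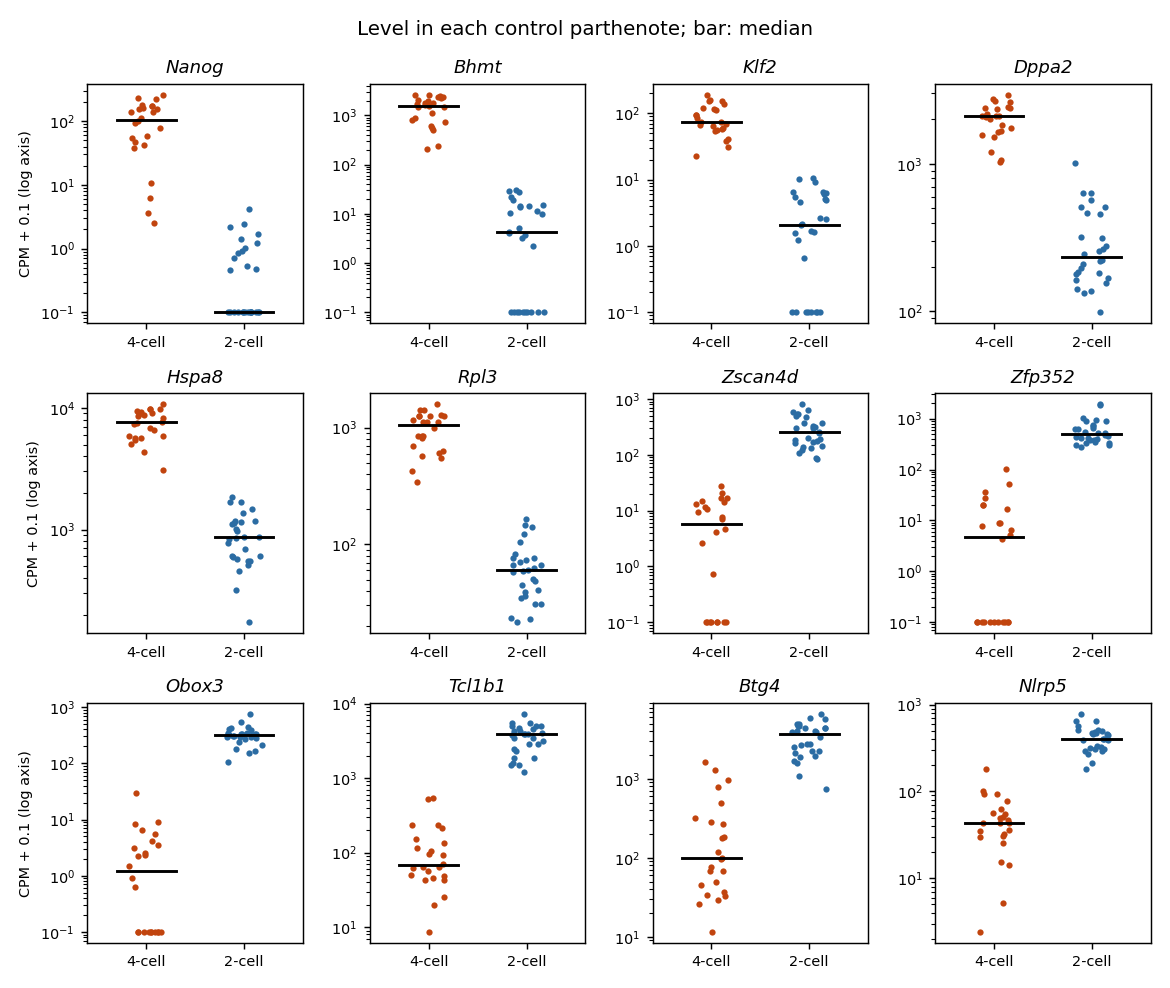
CPM plus 0.1 on a logarithmic axis in each 4-cell (left, red, n = 24) and 2-cell (right, blue, n = 28) control parthenote for 12 genes, with a bar at the group median. Embryos without a count lie on the floor of 0.1, as do 8 of the 4-cell embryos for Zscan4d, and the groups of Bhmt, Klf2, Dppa2, Hspa8, Rpl3, Zscan4d, Zfp352, Obox3 and Tcl1b1 do not overlap.

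Transcripts that the oocyte stores were far lower at 4-cell. Of 42 oocyte transcripts tested, 38 were lower (90.5%, against 40.2% of all genes), 1 was higher and 3 did not pass. Their median log2 fold change was -3.65. For 14 genes every 4-cell embryo lay below every 2-cell embryo, against 2.08% of all genes tested. The list's sum ran from 5340 to 15178 CPM at 4-cell and from 28943 to 89724 CPM (median 61231) at 2-cell. The Tcl1b genes (chromosome 12), oocyte relatives of an Akt kinase co-activator, were among these falls. Tcl1b1 had 8.50, 68.0 and 542 CPM at 4-cell, against 1220, 3853 and 7191 CPM at 2-cell. The groups did not overlap (log2 fold change -4.99, SE 0.34, adjusted p = 3.58e-19), and Tcl1b2, Tcl1b3, Tcl1b4 and Tcl1b5 fell, with log2 fold changes of -5.02, -5.17, -5.32 and -5.30. These copies lie side by side and are alike in sequence, so their separate values are uncertain.

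Dppa3, known as Stella, a maternal protein that guards DNA methylation in the zygote, was the member that rose. It had 2239, 4586 and 7855 CPM at 4-cell and 1357, 2944 and 4979 CPM at 2-cell, with much overlap (log2 fold change 0.53, SE 0.13, adjusted p = 1.94e-04). The oocyte linker histone H1foo fell by 2.13 on the log2 scale, with medians of 27.3 CPM at 4-cell and 158 CPM at 2-cell. Dnmt1, the maintenance DNA methyltransferase, fell by 0.82 (adjusted p = 5.96e-06).

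Secreted oocyte proteins and the zona pellucida, the coat of the egg, followed the same course. Of 12 genes 11 were lower (91.7%, against 40.2% of all genes) and 1 did not pass, with a median of -3.04. Gdf9, a growth factor that the oocyte sends to its follicle, had 8.45, 39.1 and 120 CPM at 4-cell, against 255, 400 and 773 CPM at 2-cell. The groups were apart (log2 fold change -3.21, SE 0.23, adjusted p = 3.95e-18). Its relative Bmp15 fell by 3.99 and the oocyte-secreted protein gene Oosp1 by 4.60. Zp2 fell by 3.07 and Zp1 by 2.10, while Zp3 fell by 0.64 (adjusted p = 0.0264).

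The subcortical maternal complex is a protein assembly of the egg cortex that mouse embryos need to pass the 2-cell stage. Of 8 members 7 were lower (87.5%, against 40.2% of all genes), with a median of -3.02. Nlrp5, known as Mater, had 2.31, 43.3 and 181 CPM at 4-cell, against 179, 402 and 776 CPM at 2-cell. A single 4-cell embryo reached the range of the 2-cell embryos (log2 fold change -3.12, SE 0.25, adjusted p = 2.23e-16). Zbed3, which helps to place the spindle, fell by 4.66, Ooep by 3.36 and Padi6 by 2.09. Khdc3, known as Filia, was the exception, with 29.7, 160 and 515 CPM at 4-cell and 18.6, 79.9 and 229 CPM at 2-cell (log2 fold change 0.93, SE 0.24, adjusted p = 4.99e-04). It averaged 2560 ± 778 CPM in morulae (SD, n = 20), where it made up nearly all of the list's summed level.

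Genes that store maternal RNA were mostly lower, and a smaller share of the genes that remove it were. In the storage list 13 of 15 genes fell (86.7%, against 40.2% of all genes), 2 did not pass and the median was -2.57. Eif4e1b, the oocyte form of the cap-binding protein, had 1.70, 9.33 and 64.3 CPM at 4-cell, against 9.18, 240 and 561 CPM at 2-cell, and fell by 4.09 on the log2 scale (SE 0.39, adjusted p = 6.69e-14). The poly(A)-binding protein gene Pabpc1l fell by 4.73, and Zar1, Ybx2 and Cpeb1, which hold mRNA silent in oocytes, fell, with log2 fold changes of -2.53, -3.16 and -2.95.

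In the mRNA decay list 14 of 25 genes fell, 4 rose and 7 did not pass, with a median of -1.48. Btg4, the adaptor that brings the CCR4-NOT deadenylase to maternal mRNA, had 11.4, 98.2 and 1625 CPM at 4-cell, against 733, 3646 and 6588 CPM at 2-cell. Of the 24 4-cell embryos 4 reached into the 2-cell range (log2 fold change -3.67, SE 0.42, adjusted p = 3.26e-11). The deadenylases Cnot6l and Cnot7 fell, with log2 fold changes of -3.23 and -2.51, and the decapping enzyme gene Dcp2 had a log2 fold change of -3.23. The scaffold gene Cnot1 did not pass (0.16, adjusted p = 0.333), nor did the uridylyl transferase genes Zcchc6 (0.04, adjusted p = 0.874) and Zcchc11 (-1.21, adjusted p = 0.0956). Edc3, an activator of decapping, rose with a log2 fold change of 2.81.

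The genes of the ribosome rose together. All 82 cytosolic ribosomal protein genes tested were higher at 4-cell, 76 of them by more than 2-fold, with a median log2 fold change of 2.27. For 36 of the 82 every 4-cell embryo lay above every 2-cell embryo, against 2.18% of all genes tested. The sum of the 82 genes ran from 27747 to 60979 CPM (median 40489) at 4-cell and from 2996 to 26524 CPM (median 8913) at 2-cell. Rpl3 (chromosome 15, 80077781 to 80083406) had 343, 1052 and 1583 CPM at 4-cell, against 21.5, 59.7 and 165 CPM at 2-cell, with no overlap (log2 fold change 3.87, SE 0.21, adjusted p = 1.29e-22). Rpl38 and Rpl34 had log2 fold changes of 3.41 and 3.39. The count of 82 higher and 0 lower was the same without 2-cell embryo 19, without 2-cell embryo 23 and without 4-cell embryos 1 and 24. Ribosomal protein genes have many processed pseudogenes, whose reads the counting could assign to either.

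The factors that make and use ribosomes rose less far. Of 48 ribosome biogenesis genes 32 were higher (66.7%), 3 lower (6.25%) and 13 not called (median 0.89). Over all genes 32.3% were higher and 40.2% lower. Gnl3, a nucleolar GTPase, had 113, 313 and 585 CPM at 4-cell and 22.4, 46.2 and 153 CPM at 2-cell, with a log2 fold change of 2.37 (SE 0.20, adjusted p = 9.10e-16). Of 14 RNA polymerase I genes 8 were higher and 1 lower (median 0.50), among them the rDNA transcription factor Ubtf with 1.56. Of 38 translation initiation factors 31 were higher and 3 lower (median 0.92), with Eif3d at 3.00 and Eif1b at -1.65. Of 20 cytosolic aminoacyl-tRNA synthetase genes, which charge tRNAs, 14 were higher and 3 lower (median 1.16).

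Protein folding and turnover genes moved the same way. Of 34 proteasome genes 32 were higher (94.1%, median 1.84), against 32.3% of all genes. The 2 that fell were the activator genes Psme4 and Psme3, with log2 fold changes of -2.15 and -1.98. Psmc4, an ATPase of the proteasome base, had 110, 334 and 928 CPM at 4-cell, against 0.801, 22.8 and 108 CPM at 2-cell, with no overlap (log2 fold change 3.56, SE 0.27, adjusted p = 1.53e-17). Of 24 chaperonin and heat shock genes 17 were higher (70.8%) and 5 lower (20.8%, median 1.29), against 32.3% and 40.2% of all genes. The constitutive chaperone gene Hspa8 (chromosome 9) had 3096, 7596 and 10695 CPM at 4-cell, against 173, 860 and 1839 CPM at 2-cell. All 4-cell embryos were above all 2-cell embryos (log2 fold change 3.03, SE 0.17, adjusted p = 8.29e-22). The heat-inducible genes Hspa1a and Hspa1b, near-identical copies, fell, with log2 fold changes of -2.08 and -2.30, and their activator Hsf1 fell by 2.26.

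Splicing and replication genes rose in smaller majorities. Of 48 spliceosome genes 30 were higher and 7 lower (median 0.74), with Lsm5 at 3.64 and Srsf10 at -1.22. Of 42 replication genes 26 were higher and 8 lower (median 0.71). Pold1, the catalytic subunit of DNA polymerase delta, had 5.44, 101 and 207 CPM at 4-cell, against 0.00, 0.00 and 16.7 CPM at 2-cell. The groups overlapped at their edges (log2 fold change 5.54, SE 0.56, adjusted p = 5.91e-13), and Orc5, of the origin recognition complex, fell by 2.08.

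**Figure D3:**
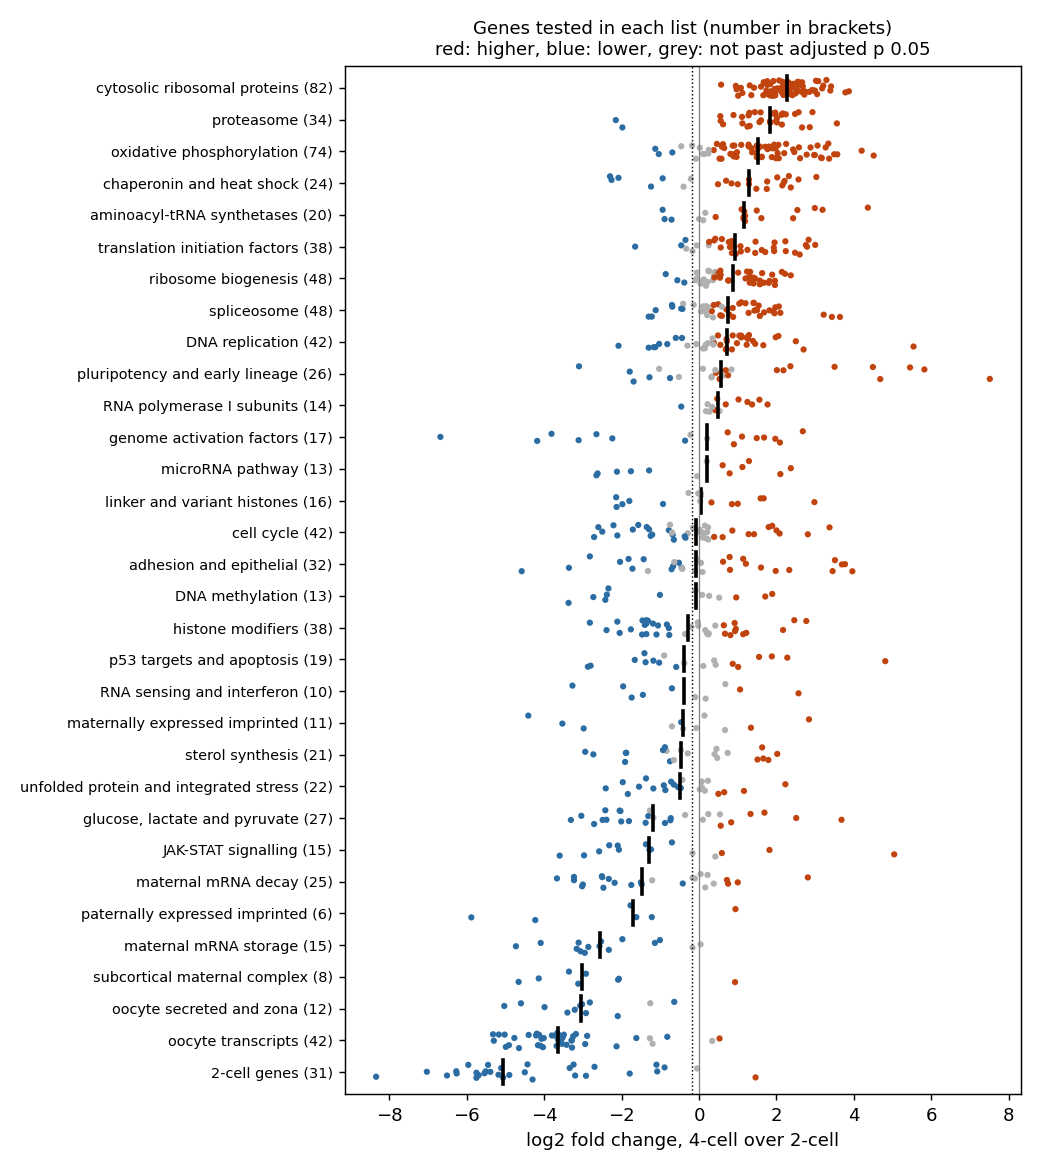
Each point is a gene tested in the named list, placed by its log2 fold change of 4-cell over 2-cell (red, higher; blue, lower; grey, not past adjusted p 0.05), with a black bar at the list median and a dotted line at the median of all genes (-0.19). Lists of at least 6 tested genes are ordered from the 2-cell genes (median -5.06) at the bottom to the cytosolic ribosomal proteins (median 2.27) at the top.

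Genes of the respiratory chain were mostly higher. Of 74 genes of oxidative phosphorylation in the mitochondria 63 were higher (85.1%) and 3 lower (4.05%), with a median of 1.53. Uqcrb, a subunit of complex III, had 15, 70.5 and 116 CPM at 4-cell, against 0.00, 2.39 and 11 CPM at 2-cell, with no overlap (log2 fold change 4.20, SE 0.35, adjusted p = 1.13e-15). Of 27 genes for glucose, lactate and pyruvate use 6 were higher (22.2%) and 15 lower (55.6%), against 32.3% and 40.2% of all genes, with a median of -1.18. The same list had 7 higher and 8 lower of 25, with a median of -0.19, in the controls of the miR-465c experiment. The early cleavage embryo is known to depend on pyruvate and lactate before it takes up glucose.

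Ldhb, the oocyte form of lactate dehydrogenase, had 25, 65.4 and 300 CPM at 4-cell, against 299, 852 and 2019 CPM at 2-cell (log2 fold change -3.31, SE 0.25, adjusted p = 1.26e-17). The groups met within about 1 CPM of 300. The pyruvate kinase gene Pkm fell by 3.04, with medians of 72.1 CPM at 4-cell and 634 CPM at 2-cell, and stood at 715 ± 297 CPM in morulae (SD). The glucose transporter gene Slc2a1 fell by 2.71, to a median of 5.76 CPM at 4-cell against 43.4 CPM at 2-cell. Hexokinase 1 (Hk1) and the pyruvate dehydrogenase gene Pdha1 rose, with log2 fold changes of 3.68 and 2.51.

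Of 21 sterol genes 5 were higher (23.8%) and 8 lower (38.1%, median -0.47), near the 32.3% and 40.2% of all genes. Insig1, the sensor that retains the sterol regulator in the endoplasmic reticulum, had 9.72, 27.9 and 87.3 CPM at 4-cell, against 108, 203 and 370 CPM at 2-cell. The groups were apart (log2 fold change -2.73, SE 0.19, adjusted p = 1.20e-18).

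Single metabolic genes stood among the largest rises of all. Bhmt (chromosome 13, 93616891 to 93637758), betaine-homocysteine methyltransferase, had 206, 1591 and 2666 CPM at 4-cell, against 0.00, 4.13 and 31.1 CPM at 2-cell. No 2-cell embryo came near the 4-cell range (log2 fold change 7.44, SE 0.53, adjusted p = 2.25e-18). Isyna1, which makes inositol, had 484, 2754 and 6069 CPM at 4-cell and 4.71, 86.9 and 269 CPM at 2-cell, again without overlap (log2 fold change 4.81, SE 0.28, adjusted p = 2.47e-21). Galk1 (galactokinase), Slc6a8 (the creatine transporter), Gaa (lysosomal glucosidase) and Gulo (the last enzyme of vitamin C synthesis in mouse) rose, with log2 fold changes of 6.24, 5.61, 4.61 and 4.52. Fkbp10, Plek2 and Sfn (14-3-3 sigma) rose, with 7.35, 6.6 and 6.14.

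Several pluripotency genes were near 0 at 2-cell and present at 4-cell. Of 26 pluripotency and early lineage genes tested 13 were higher (50.0%), 5 lower (19.2%) and 8 not called, with a median of 0.57. Over all genes 32.3% were higher and 40.2% lower. Sox2 and Cdx2 were among 12 further members below the filter on low counts. Nanog (chromosome 6, 122707489 to 122714633), a core factor of the inner cell mass, had 2.42, 106 and 262 CPM at 4-cell, against 0.00, 0.00 and 4.01 CPM at 2-cell. It had a count in 24 of 24 embryos at 4-cell and in 13 of 28 at 2-cell, and 2 of the 4-cell embryos lay within the range of the 2-cell embryos (log2 fold change 7.51, SE 0.53, adjusted p = 1.88e-18). Klf2 had 22.6, 73.6 and 192 CPM at 4-cell and 0.00, 1.98 and 10.6 CPM at 2-cell, with the groups apart (log2 fold change 4.68, SE 0.43, adjusted p = 2.69e-14).

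The Nodal co-receptor gene Tdgf1, the Notch target Hes1, Sox15 and the trophectoderm factor gene Tead4 rose, with log2 fold changes of 5.82, 5.45, 4.49 and 3.50. Pou5f1, known as Oct4 and also stored by the oocyte, had 29.9, 281 and 515 CPM at 4-cell and 218, 427 and 1051 CPM at 2-cell, and fell by 0.75 (SE 0.21, adjusted p = 0.00114). Carm1, an arginine methyltransferase linked to lineage bias between blastomeres, was not called, at a log2 fold change of 0.32 (SE 0.50, adjusted p = 0.572). Klf4 (0.84, adjusted p = 0.0967), Esrrb (0.61, adjusted p = 0.0690) and Prdm14 (-0.52, adjusted p = 0.397) did not either.

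Several further lists moved in shares near those of all genes, 32.3% higher and 40.2% lower. Of 32 genes of cell contact and polarity 13 were higher (40.6%) and 11 lower (34.4%). Their median of -0.08 was 0.11 without the filter on low counts and 0.09 with a mean of at least 10 CPM. Gja1, the gap junction protein connexin 43, had 181, 583 and 1071 CPM at 4-cell, against 5.64, 38.2 and 170 CPM at 2-cell, with no overlap (log2 fold change 3.69, SE 0.26, adjusted p = 2.44e-18). The claudin genes Cldn7 and Cldn4 rose, with 3.96 and 3.45, and Cldn6 fell by 2.04. The polarity genes Pard3 and Prkci fell, with log2 fold changes of -4.58 and -2.82, and for both every 4-cell embryo lay below every 2-cell embryo. Cdh1, E-cadherin, rose with a log2 fold change of 0.79 (adjusted p = 0.0243).

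Among 13 DNA methylation genes 3 were higher (23.1%) and 6 lower (46.2%), near the 32.3% and 40.2% of all genes. Their median of -0.09 was 0.01 without 2-cell embryo 23. Tet3, the oxygenase that acts on methylated DNA in the zygote, had 4.31, 12.0 and 41.5 CPM at 4-cell, against 21.3, 128 and 212 CPM at 2-cell, and fell by 3.37 (SE 0.24, adjusted p = 3.12e-18), while Tet1 rose with 1.71 (adjusted p = 5.68e-08). Zfp57, which protects imprints, fell by 2.42 without overlap. Among 38 histone modifier genes 11 were higher (28.9%) and 18 lower (47.4%, median -0.28), with Ehmt2 at 2.77 and Suv39h2 at -2.82. Kdm5b did not pass (0.21, adjusted p = 0.218).

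Of 42 cell cycle genes 11 were higher (26.2%), 16 lower (38.1%) and 15 not called, near the 32.3% and 40.2% of all genes. Their median of -0.08 was 0.02 without 2-cell embryo 23. Myc had 9.52, 143 and 563 CPM at 4-cell and 0.00, 9.58 and 86.4 CPM at 2-cell, with overlapping ranges (log2 fold change 3.37, SE 0.47, adjusted p = 7.17e-09). Cdk4 rose with 2.81, while the centriole kinase gene Plk4 fell by 2.60 and the checkpoint kinase gene Chek1 by 2.50. Of 19 genes of apoptosis and p53 response 6 were higher (31.6%) and 8 lower (42.1%), shares close to those of all genes. Of single members, Bad and Bax, which promote cell death, rose with 4.81 and 2.28, and Bcl2l1 and Mdm4, which restrain it, fell, with log2 fold changes of -2.87 and -2.80. These 4 do not stand for the list, whose other called members are not given here. In the miR-465c controls 3 of 19 were higher and 9 lower.

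Because the study injects microRNAs, the genes that carry microRNA function were read as a list. Of 13 tested, 6 were higher (46.2%) and 5 lower (38.5%), with a median of 0.20, against 32.3% and 40.2% of all genes. Xpo5, which exports microRNA precursors from the nucleus, and Ago4 rose, with log2 fold changes of 2.10 and 2.37. Ago2, the slicing Argonaute, had 50.1, 108 and 192 CPM at 4-cell and 27.5, 50.9 and 108 CPM at 2-cell, and rose with 0.79 (SE 0.16, adjusted p = 1.49e-05). Drosha and Dicer1, which cut the precursors, fell, with log2 fold changes of -1.76 and -1.29, and Tnrc6b and Tnrc6c, the silencing partners of Argonaute, fell, with log2 fold changes of -2.65 and -2.62. Dgcr8 (0.20, adjusted p = 0.381) and Tnrc6a (-0.05, adjusted p = 0.915) did not pass.

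JAK-STAT genes were lower in 10 of 15 cases and higher in 3 (median -1.28). Jak2 had 5.87, 44.9 and 111 CPM at 4-cell, against 129, 264 and 408 CPM at 2-cell, with the groups apart (log2 fold change -2.32, SE 0.19, adjusted p = 2.55e-16). Stat3 fell by 2.10 and the receptor gene Il6st by 3.60. The feedback inhibitors Socs3 and Cish rose, with 1.82 and 5.04.

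Of 10 RNA sensing and interferon genes 2 were higher (20%) and 5 lower (50%), with Irf1 at -3.27 and Oasl2 at 2.57. Their median of -0.40 was -0.02 without 4-cell embryos 1 and 24. Of 22 unfolded protein and integrated stress genes 4 were higher (18.2%) and 12 lower (54.5%, median -0.50), with the serine synthesis gene Psat1 at 2.23 and the stress kinase gene Ern1 at -1.97. Of 16 linker and variant histone genes 6 were higher (37.5%) and 5 lower (31.2%), with H2afx at 2.98 and Slbp, which binds histone mRNA, at -2.14. Over all genes the shares were 32.3% higher and 40.2% lower. Apoe, which carries lipids between cells, was not called (0.16, adjusted p = 0.734).

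Imprinted genes expressed from the paternal copy were mostly too low to test. Of 30 such genes only 6 passed the filter on low counts, with 1 higher and 5 lower. Snrpn had a count in 3 of 24 embryos at 4-cell and in 25 of 28 at 2-cell, with means of 0.817 ± 2.31 CPM and 48.2 ± 29.3 CPM (SD), and fell by 5.88 (SE 0.71, adjusted p = 1.75e-10). Mest fell by 4.23, with medians of 3.03 CPM at 4-cell and 107 CPM at 2-cell. In fertilized 4-cell embryos, which do have a paternal genome, Snrpn and Mest averaged 0.542 ± 1.93 and 3.89 ± 4.95 CPM (SD, n = 21). Of 11 maternally expressed genes 2 were higher (18.2%) and 4 lower (36.4%), against 32.3% and 40.2% of all genes. Igf2r had 139, 293 and 509 CPM at 4-cell and 0.00, 28.0 and 200 CPM at 2-cell, and rose with a log2 fold change of 2.84 (SE 0.31, adjusted p = 4.87e-12).

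The lists of other cell types barely entered the test. Of the cumulus and granulosa markers Amhr2 and Gata4 alone were tested and were higher (1.15 and 0.53). The summed level of all 20 had a median of 572 CPM at 4-cell and 266 CPM at 2-cell. The defining markers given above averaged at most 0.67 CPM at 4-cell and 4.00 CPM at 2-cell. Of the sperm markers Ldhc fell by 1.18 and Odf2l did not pass (-0.06, adjusted p = 0.897). The haemoglobin gene Hba-a2, the one blood marker tested, had a log2 fold change of 1.03 (adjusted p = 0.0224).

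The stage order was read from the control morulae. The summed level of 2-cell genes had a median of 6608 CPM at 2-cell, 1234 CPM at 4-cell and 347 CPM at morula. A large part of the 4-cell value was Sp110, as given above. Oocyte transcripts had medians of 61231, 7880 and 3157 CPM in the same order, and cytosolic ribosomal proteins of 8913, 40489 and 65600 CPM. Proteasome genes summed to medians of 3507, 10101 and 19939 CPM, and pluripotency and early lineage genes to 2215, 5591 and 7825 CPM. The 4-cell median thus stood between those of the other stages in these 5 sums, but not in several other lists. RNA polymerase I subunits had medians of 1584, 2812 and 1517 CPM and cell cycle genes of 11261, 12967 and 6902 CPM, highest at 4-cell. The miR-465c controls had no such rise for RNA polymerase I, with medians of 2582 CPM at 2-cell and 2440 CPM at 4-cell. Cell cycle genes had 13584 and 14103 CPM there. In the miR-200c controls genes for glucose, lactate and pyruvate use had 3349, 2937 and 6572 CPM and sterol genes 2456, 1654 and 3487 CPM, lowest at 4-cell. Ribosome biogenesis had medians of 6978, 15886 and 13594 CPM, and the subcortical maternal complex 12760, 634 and 2639 CPM. In that complex Khdc3 alone carried the morula level: the other 7 members summed to medians of 12675, 443 and 51.5 CPM, and Khdc3 to 79.9, 160 and 2587 CPM.

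**Figure D4:**
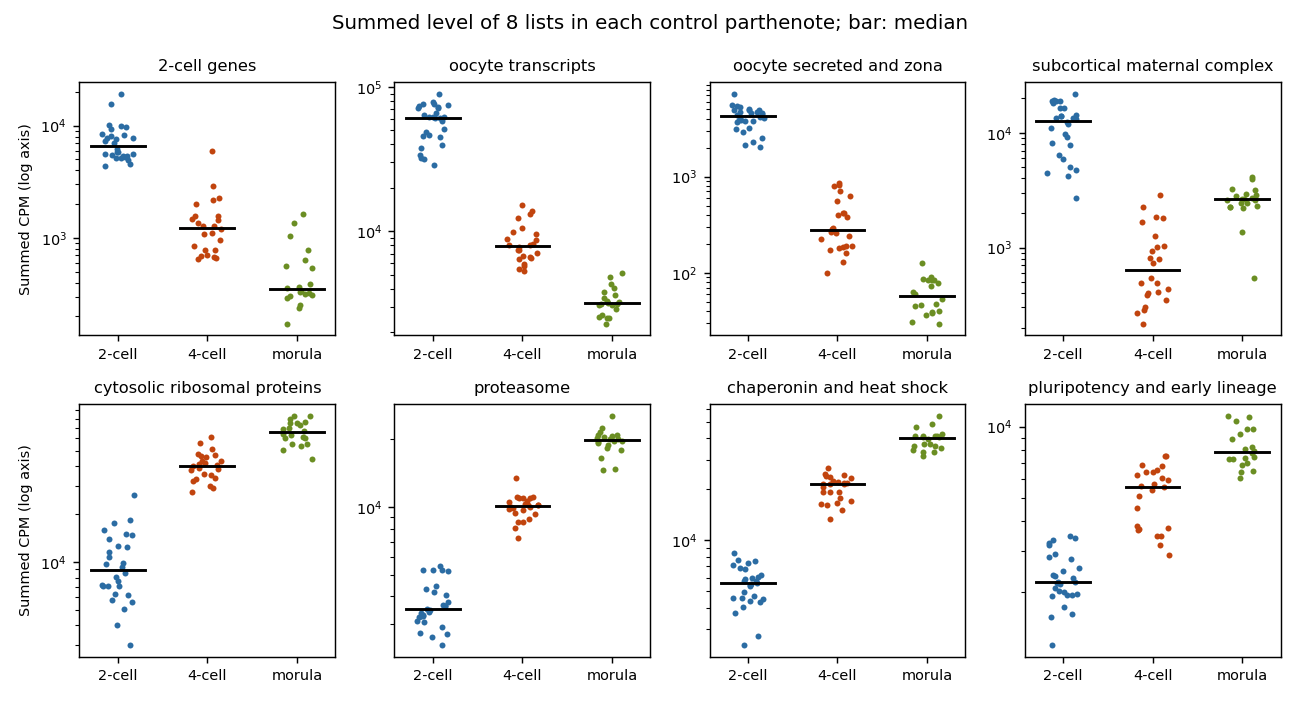
Summed CPM of 8 lists (logarithmic axes) in each control parthenote at 2-cell (n = 28), 4-cell (n = 24) and morula (n = 20), with a bar at the median. Of these lists the subcortical maternal complex alone has its lowest median at 4-cell (634 CPM), and without Khdc3 it too is lower at morula (51.5 CPM) than at 4-cell (443 CPM).

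The same contrast in the GFP controls of the miR-465c experiment rests on other embryos. There 5483 of 9396 genes passed (58.4%), with 2661 higher (28.3%) and 2822 lower (30%) at 4-cell. Of 9237 genes tested in both experiments, 2297 were called higher in both, which is 70.8% of those called higher in the miR-200c experiment and 88.1% of those in the miR-465c experiment. For genes called lower, 2478 were shared, 72.3% and 88.2% of each. In opposite directions 52 genes were called. Across genes, which are not independent replicates, the fold changes of the 2 experiments had a Pearson correlation of 0.90.

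Several lists had medians of the same sign in the miR-465c controls, with -6.80 for 2-cell genes (25 of 26 lower) and -3.23 for oocyte transcripts (39 of 42 lower). The median was 2.55 for cytosolic ribosomal proteins (81 of 81 higher), 1.64 for the proteasome and 1.97 for oxidative phosphorylation. The medians of the microRNA pathway (-0.73) and of adhesion genes (0.28) had the opposite sign there, and that of glucose, lactate and pyruvate use was nearer to 0 (-0.19 against -1.18). A test of the difference between the experiments' effects called 792 of 11700 genes (6.77%). The log2 fold change, with its sign, was higher in the miR-200c experiment for 487 of them and lower for 305. A gene that fell less far in the miR-200c experiment therefore counts as higher. This split depends on scaling, with 367 and 522 by RLE scaling and 709 and 207 by library totals alone. Of the 32 genes of the 2-cell list 13 differed, and of the 75 of oxidative phosphorylation 16, against 6.77% of all genes tested. Usp17lc, of the 2-cell list, had log2 fold changes of -6.26 in the miR-200c and -10.64 in the miR-465c controls (adjusted p of the difference 2.78e-04). Gja1 rose further in the miR-200c controls (3.69) than in the miR-465c controls (2.30, adjusted p of the difference 0.00179), and Lats2 less far (3.77 and 8.37, adjusted p of the difference 4.10e-04).

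**Figure D5:**
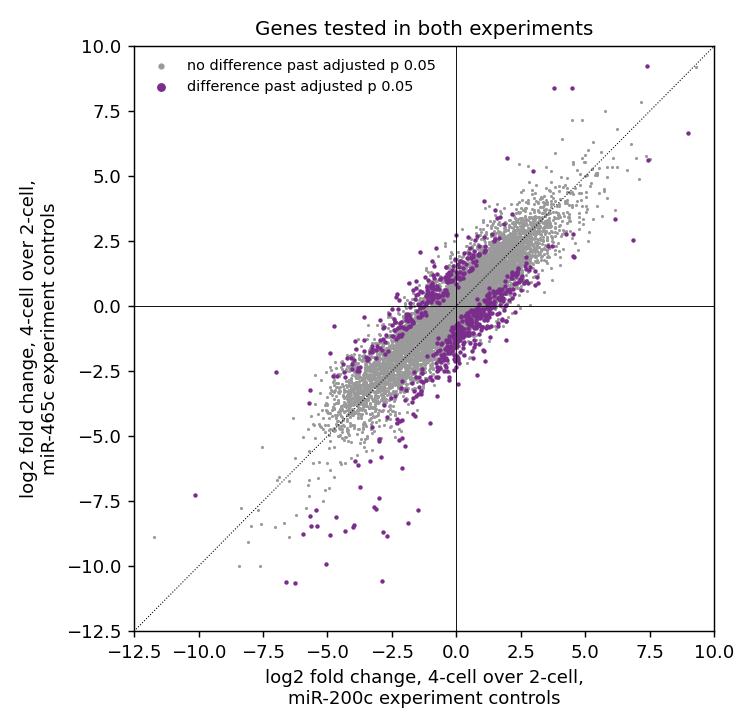
Log2 fold change of 4-cell over 2-cell in the controls of the miR-200c (horizontal) and miR-465c (vertical) experiments, for the 9237 genes tested in both. Most genes lie along the dotted line of equal change, and purple points are genes whose difference between the experiments passed adjusted p 0.05.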

How the data were processed

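Groups and replicate numbers came from the sample titles, and all 52 embryos entered every main fit. Per the labels' protocols, the authors mapped paired-end SMART-Seq reads to the mm10 genome with RSEM, and the deposited values are expected counts per gene, not normalized. Beside RSEM, tools named in the submitters' processing notes without a stated role were STAR, featureCounts, FastQC, cutadapt, DESeq2 (1.48.2) and R (4.5.1). The sheets of the stages were joined by gene symbol (23845 symbols). No pair of embryos held identical values. RSEM divides reads that fit several genes by estimation, which touches gene families.

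Expected counts were rounded and tested with edgeR 4.0.16 in R 4.3.3 (TMM, filterByExpr by group, glmQLFit and glmQLFTest, glmTreat, Benjamini-Hochberg), with only the 4-cell and 2-cell controls in the fit. The filter left 10301 genes. The script was tested on simulated data. CPM used the library total. Measures per embryo were compared by permutation of 100000 resamples. Libraries carry no molecular identifiers, so counting limits cover counting error only. Gene places and promoters are from RefSeq on GRCm38.p6, where 23724 symbols were placed.

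Genes were named by a rule. They are the 12 largest rises and falls with a mean of at least 50 CPM and a count in every embryo of the higher group, the 6 largest of at least 500 CPM, up to 4 rises and 4 falls of each list of at least 10 CPM, and 7 genes of interest. Psap, Abcb5 and Ppp2r1b were named for a motif. Other list members named without that rank were chosen after their values were seen. The groups, the 35 lists and the tests were chosen with earlier results of these data known. Alternatives were RLE scaling, library totals alone, DESeq2 1.42.0, other filters, a block or bands of embryo numbers, and fits without single embryos.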

Additional observations from a re-analysis of the deposited data

Results flagged for a closer look

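The 4-cell against 2-cell difference was not the same in the controls of the 2 experiments for 792 of 11700 genes (edgeR interaction test, adjusted p under 0.05), and for 27 of the 247 genes chosen by the naming rule. The experiments share no embryo, and experiment and batch cannot be told apart.

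Of these genes, 8 differed by that test and had fold changes of opposite sign. Snrpg, a core spliceosome protein, had a log2 fold change of -1.12 in the miR-200c and 1.01 in the miR-465c controls (difference -2.0, adjusted p = 3.05e-08). The respiratory chain genes Cox8a (-1.13 and 0.37, difference -1.39), Ndufab1 (-1.04 and 0.47, difference -1.38) and Ndufa2 (-0.69 and 0.40, difference -0.99) did likewise. The replication gene Rfc5 had -1.17 and 0.12 (difference -1.18). The phosphatase subunit gene Ppp1r15b had 0.65 and -1.99 (difference 2.77), the helicase gene Ddx60 had 1.06 and -1.72 (difference 2.88), and the imprinted gene Usp29 had 0.94 and -0.94 (difference 1.98). In the miR-465c controls Cox8a, Ndufab1, Ndufa2 and Rfc5 did not pass the test against 0. The cause was not tested.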

How the results depend on the processing

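The 247 genes chosen by the naming rule, of which 246 passed the test, were checked under the alternatives. Of 2959 checks, 2929 kept the direction and the side of the threshold, 30 lost the call and none reversed. Of the 2929, 247 came from requiring at least 1000000 counts, which removed no embryo and could not change the result. Apart from the genes of interest, the rule picked the largest changes in the main fit. Kept calls were therefore likely in advance and do not speak for other genes. Genes named outside the rule were not checked. Without the filter on low counts 11801 genes were called (5017 higher, 6784 lower), of which 8486 changed more than 2-fold (3313 higher, 5173 lower). The replicate block on embryo numbers called 6685 genes. Over 20 shared numbers the deviations correlated from -0.108 to 0.183, with 1 embryo best matched to its own number. The profiles thus gave no sign that the numbers pair embryos. They cannot show whether equal numbers share a day or a pool of eggs. Within numbers 1 to 8, 9 to 16 and 17 to 24 the test called 49.4%, 37.0% and 42.7% of genes. Of the genes chosen by the naming rule, 239 of 240, 245 of 247 and 246 of 246 kept their sign. The bands hold embryos of the main fit that chose these genes, so the kept signs are not an independent check. The difference between experiments was called for 488 genes with bands of numbers. Of these, 187 had the higher log2 fold change, with its sign, in the miR-200c experiment. Genes with the lower one there numbered 522 by RLE scaling and 695 by DESeq2. List medians moved beyond their spread for 2-cell genes (-6.34) and mRNA decay (-1.86) with the replicate block, and for DNA methylation (-0.46) and paternally expressed imprinted genes (-0.67) with a mean of at least 10 CPM. Without the filter they moved for the microRNA pathway (0.79), RNA sensing (-1.40), JAK-STAT (-0.49) and paternally expressed imprinted genes (-0.10). The difference in distance from the group profile was -0.0254 with genes of at least 10 CPM in both groups and did not pass (permutation test, p = 0.121). No embryo of either group held fewer than 1000000 counts. The cause of these shifts was not tested. Below about 1 CPM single counts decide a level.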
